A study of Saccharomyces cerevisiae with 103 samples.

Results

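The genes described here encode the proteins of the large, 60S subunit of the cytosolic ribosome of budding yeast, Saccharomyces cerevisiae. A gene was a member if its standard name is RPL followed by a number, with or without A or B, or is RPP0, RPP1A, RPP1B, RPP2A or RPP2B. The rule found 81 genes among the 6692 gene rows of the tables. Of these, 11 are single-copy genes (RPL3, RPL5, RPL10, RPL25, RPL28, RPL29, RPL30, RPL32, RPL38, RPL39 and RPP0) and 70 form 35 pairs of A and B copies. Introns interrupt 53 of the 81 genes, and RPL7A and RPL7B each overlap an annotated small RNA gene, SNR39 and SNR59. The rule used names only and no measured value.

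The 60S subunit holds the peptidyl transferase centre and the exit tunnel of the ribosome, and its P stalk, built on RPP0 with pairs of the RPP1 and RPP2 proteins, recruits elongation factors. In S. cerevisiae the genes of ribosomal proteins are transcribed together through Rap1, Fhl1 and Ifh1, and nutrient signalling through the TOR and protein kinase A pathways turns them up in rich medium and down in starvation. Their mRNAs are among the most abundant of a growing cell. The poly(A) tail of an mRNA is shortened by the Ccr4-Not complex, whose 2 nucleases are Ccr4 and Pop2, and Xrn1 then degrades decapped mRNA from its 5′ end.

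All libraries came from the strain SK1, which sporulates synchronously. Wild-type (WT) cells were grown in YPD 4% and then in BYTA, and were moved into sporulation medium (SPO), where diploid cells enter meiosis. The first experiment sampled WT cells at each hour from 0 to 9 h in SPO, with 2 libraries per time. The second took WT cells after 1 h or 7 h in SPO, before and at 5 and 20 min after transfer to YPD 2%, the rich medium in which they can return to growth, again with 2 libraries per group. The third held WT cells and strains that lack Ccr4 (ccr4Δ/Δ), Pop2 (pop2Δ/Δ) or Xrn1 (xrn1Δ/Δ), in vegetative growth in YPD 2%, in premeiotic culture and after 5 h in SPO, with 1 library each. The fourth held a degron-Xrn1 strain at 0 and 30 min after addition of 500 µM auxin with 50 µM CuSO4, and a WT control. The fifth held a pCup1-Ccr4 strain, in which CCR4 stands under the copper-induced Cup1 promoter, at 0 and 60 min after 50 µM CuSO4, and a WT control. Neither WT control is labelled as treated, so copper and, in the fourth experiment, auxin came with the induction itself. RNA-seq gave read counts per gene, and separate libraries of poly(A) tags gave a tag count and a mean tail length per gene in nucleotides (nt).

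Sequences were read from the RefSeq R64 genome to show what separates the copies of a pair and what lies upstream of some of the genes. A degenerate motif of the Rap1 type, 10 letters long, was searched on both strands of the 500 nt upstream of each start codon. It was present upstream of 25 of the 81 genes (30.9%), against 146 of 6021 protein-coding genes (2.42%) and 20 of 56 genes of small-subunit proteins (35.7%). Among single-copy genes it was present in 2 of 11 (18.2%) and among paralogue genes in 23 of 70 (32.9%). A match describes the letters only. Windows of 50 nt around the match nearest the start codon follow for 7 genes named in the results, written 5′ to 3′ on the gene's strand, with the match in capitals. The match of RPL25 and of RPL30 lies on the other strand, so the capitals show its complement. The nearest match lay 218 nt from the start codon in RPL22A, 236 nt in RPL22B, 241 nt in RPP1B, 321 nt in RPL30, 335 nt in RPL41B, 347 nt in RPL40A and 388 nt in RPL25.
RPL22A (chrXII:262946-262995, plus strand): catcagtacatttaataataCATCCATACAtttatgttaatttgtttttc
RPL22B (chrVI:65149-65198, minus strand): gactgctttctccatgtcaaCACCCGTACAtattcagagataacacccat
RPL25 (chrXV:79930-79979, plus strand): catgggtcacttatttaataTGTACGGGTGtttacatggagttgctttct
RPL30 (chrVII:438740-438789, plus strand): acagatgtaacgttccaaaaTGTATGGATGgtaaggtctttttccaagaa
RPL40A (chrIX:68331-68380, plus strand): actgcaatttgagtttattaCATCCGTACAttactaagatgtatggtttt
RPL41B (chrIV:222117-222166, minus strand): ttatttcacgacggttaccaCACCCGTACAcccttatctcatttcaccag
RPP1B (chrIV:229635-229684, plus strand): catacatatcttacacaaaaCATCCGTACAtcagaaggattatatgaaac
No match was found in these windows for RPL15A, RPL15B, RPL21A, RPL21B or RPL41A.

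The copies of a pair range from distinct to nearly identical in their coding sequence. Coding identity ran from 69.2% for RPP1 to 99.4% for RPL1, with 73.6% for RPP2 and 78.9% for RPL22, it reached at least 95% in 11 of the 35 pairs, and 12 pairs encode identical proteins. RPL41, the shortest gene of the set, encodes the same small peptide in both copies, and its coding sequences of 78 nt differ at 1 base, printed in capitals.
RPL41A (chrIV:130407-130484, minus strand): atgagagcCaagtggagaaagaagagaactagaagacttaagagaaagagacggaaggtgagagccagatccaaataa
RPL41B (chrIV:221724-221801, minus strand): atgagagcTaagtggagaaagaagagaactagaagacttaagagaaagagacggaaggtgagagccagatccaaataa
RPL15A and RPL15B differ at 42 of 615 coding bases, and RPL21A and RPL21B at 29 of 483. For each pair, the 60-nt coding window with the most differences is shown, with the differing bases in capitals: 10 in RPL15 and 8 in RPL21.
RPL15A (chrXII:201977-202036, minus strand): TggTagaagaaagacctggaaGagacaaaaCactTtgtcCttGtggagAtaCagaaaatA
RPL15B (chrXIII:509735-509794, minus strand): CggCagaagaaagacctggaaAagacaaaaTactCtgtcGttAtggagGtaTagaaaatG
RPL21A (chrII:606898-606957, plus strand): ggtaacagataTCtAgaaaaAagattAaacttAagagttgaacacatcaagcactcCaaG
RPL21B (chrXVI:407297-407356, plus strand): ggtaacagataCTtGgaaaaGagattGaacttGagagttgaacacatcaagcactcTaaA
The sources used here do not state how reads that match both copies were assigned, so the split of reads within a close pair is uncertain.

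RNA-seq totals ranged from 364038 to 3821895 counts per library in the first experiment, 132594 to 4689131 in the second, 178152 to 1596718 in the third and 1299404 to 4583279 in the last 2 together. Tag totals ranged from 71930 to 8926553. The labels do not say whether replicates were separate cultures, so p-values measure the spread between these libraries, which may be technical. CCR4 RNA stood at 0.00 to 1.80 CPM, the count scaled to a common library total, in the ccr4Δ/Δ libraries and at 91.2 to 147 CPM in WT. POP2 was at 0.00 CPM in all pop2Δ/Δ libraries, and XRN1 at 1.76 to 4.38 CPM in xrn1Δ/Δ against 152 to 373 CPM in WT. The degron acts on the Xrn1 protein, so XRN1 RNA checks nothing there, and CCR4 rose from 105 to 490.4 CPM in the pCup1-Ccr4 strain. In bulk samples, fewer cells of a type and less RNA per cell cannot be told apart.

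In SPO, RNA of the large-subunit genes fell within the first hour and came back only in part. At 1 h, 79 of the 81 genes were lower than at 0 h and none was higher at a Benjamini-Hochberg adjusted p under 0.05 in the quasi-likelihood test of edgeR, against 29.3% lower and 28.4% higher of all genes tested. The median log2 fold change of the 81 genes was -3.10 and that of all genes 0.02. All 11 single-copy genes fell, with a median of -3.34, and 68 of the 70 paralogue genes fell, with a median of -3.03. All 56 small-subunit genes fell too (median -3.29), while 32 of 34 genes of the mitochondrial large subunit fell by less (median -1.48).

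RPL5, whose protein binds the 5S rRNA (YPL131W, chrXVI:303121-304014, plus strand, no intron), fell the most of the single-copy genes at 1 h. Its level was 747 and 640.0 CPM at 0 h, 30.0 and 26.3 CPM at 1 h, 108 and 109 CPM at 5 h, and 160.1 and 132 CPM at 9 h. The 1 h libraries were far below all others, and the 5 h and 9 h libraries lay between them and 0 h without overlap with either. The log2 fold change of RPL5 was -4.63 ± 0.17 (SE) at 1 h (edgeR adjusted p = 2.87e-13) and -2.27 ± 0.16 at 9 h. RPL3, a protein near the peptidyl transferase centre (YOR063W, chrXV:444686-445849), fell by 4.25 ± 0.19 on the log2 scale at 1 h, from 990.1 and 1019.7 CPM to 56.3 and 49.9 CPM. RPL3 had come back to 613 and 609 CPM at 9 h. RPL10, which joins the subunit late in assembly, went from 884 and 893 CPM to 93.1 and 82.8 CPM, and stood at 248 and 240.4 CPM at 9 h.

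The genes of the P stalk moved with the rest. RPP0, the base of the stalk (YLR340W, chrXII:805887-806825), fell from 718 and 642 CPM at 0 h to 47.3 and 60.9 CPM at 1 h, and stood at 215 and 204 CPM at 9 h. The genes of the acidic stalk proteins fell too, with log2 fold changes of -3.17 (RPP1A), -3.33 (RPP1B), -3.66 (RPP2A) and -4.21 (RPP2B). At 9 h RPP2A had hardly come back, with 19.3 and 27.0 CPM against 189 and 135 CPM at 0 h. RPP2B stood at 74.5 and 76.6 CPM at 9 h against 219 and 181 CPM at 0 h.

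Other single-copy genes recovered further. RPL29, a protein that cells can lack (YFR032C-A, chrVI:223258-223437), stood at 93.1 and 91.4 CPM at 0 h, 13.5 and 10.4 CPM at 1 h, 52.0 and 71.0 CPM at 5 h, and 99.3 and 78.1 CPM at 9 h. Its 9 h libraries lay on both sides of the 0 h libraries, with a log2 fold change of -0.10 ± 0.20 (edgeR adjusted p = 0.696). RPL39, which lines the exit tunnel, stood at 156 and 175 CPM at 0 h and at 143 and 233 CPM at 9 h (adjusted p = 0.372 in edgeR). RPL30, whose protein blocks the splicing of its own transcript (YGL030W, chrVII:439091-439638), stood at 203 and 204 CPM at 0 h, 18.8 and 17.0 CPM at 1 h, and 113 and 168 CPM at 9 h. The log2 fold changes at 1 h were -3.22 for RPL25, -3.01 for RPL28, whose mutants resist cycloheximide, -3.77 for RPL32 and -3.28 for RPL38.

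At 5 h, 80 genes were lower than at 0 h and 1 was higher, with 37.6% lower and 30.0% higher among all genes, and the median was -2.39. At 9 h, 70 were lower and none was higher at an adjusted or an unadjusted p under 0.05 (34.1% lower and 28.5% higher among all genes), and the median was -1.41. The single-copy median at 9 h was -0.73, with 9 of 11 lower, and the paralogue median -1.43, with 61 of 70 lower. These comparisons share the 0 h libraries. Between 1 h and 5 h, 49 genes rose and 3 fell (28.1% and 27.4% of all genes), and 31 rose when the first 5 h library was left out. The median rise was 1.16 for the single-copy genes, 9 of 11 of which rose, and 0.69 for the paralogue genes, of which 40 rose and 3 fell. The genes that fell from 1 h to 5 h were RPL21B, RPL41A and RPL41B. All 81 genes changed somewhere over the course, as did 94.5% of all genes.

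Poly(A) tag counts, tested with the same model as an analysis chosen after seeing the data, moved in the same direction at 1 h. There 73 of the 80 genes tested had fewer tags than at 0 h, against 14.4% of all genes, with a median of -2.99. From 1 h to 5 h the tags of 4 genes rose and those of 1 fell (13.3% and 10.5% of all genes). The median of the set at this step was 0.08 in tags against 0.72 in RNA, so tags did not show the rise seen in RNA. Summed over the 10 stage markers of sporulation, RNA rose from 1315.2 to 1355.2 CPM at 0 h to 3894.1 to 4071.9 CPM at 1 h and 15446.4 to 21475.6 CPM at 5 h.

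**Figure D1:**
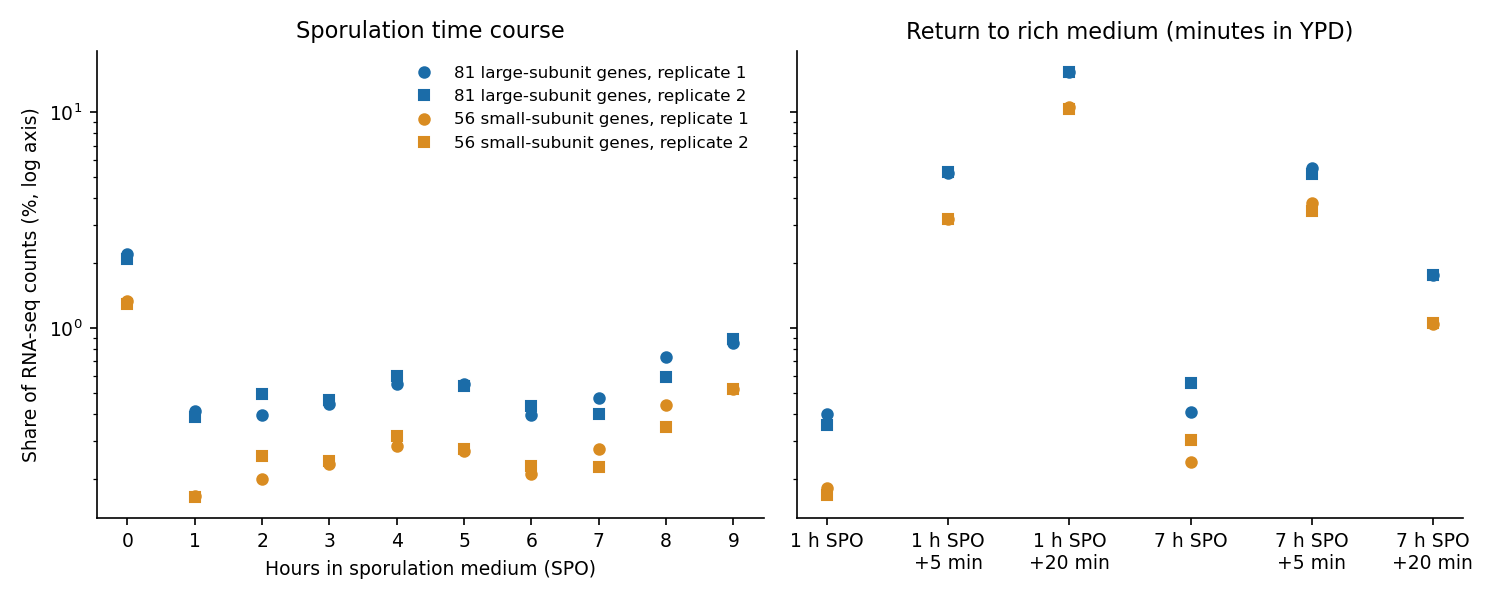
Share of all RNA-seq counts (%, log axis) held by the 81 large-subunit genes and the 56 small-subunit genes, by hour in SPO (left) and before and after transfer to YPD (right), with 1 point per library. Large-subunit genes held 2.20% and 2.09% of counts at 0 h and 0.411% and 0.387% at 1 h. After transfer of 1 h cells their share rose to 15.3% and 15.4% at 20 min, and after transfer of 7 h cells it peaked at 5 min.

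The large-subunit genes are few, yet their share of all RNA-seq counts moved over a wide range, which the plot of shares by library shows. They held 2.20% and 2.09% of the counts at 0 h, 0.411% and 0.387% at 1 h, 0.549% and 0.535% at 5 h, and 0.847% and 0.885% at 9 h. In WT cells growing in YPD they held 17.2%. Single-copy genes made up 23.3% and 23.9% of the members' counts at 0 h and 10.98% and 11.3% at 1 h. This share is a sum of counts, and RPL41B, a paralogue gene with many counts, did not pass the test at 1 h. Per kb of coding sequence, which leaves out untranslated regions, the median level in growing WT cells was 6922 CPM per kb. RPL41A stood highest at 72129 CPM per kb, before RPL41B at 44485 and RPL39 at 16179 CPM per kb. These genes have the shortest coding sequences of the set, at 78, 78 and 156 nt, so their rank depends on the division by length. RPL15B was lowest at 612 CPM per kb, below RPL22B at 858 and RPL18B at 1357 CPM per kb.

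After return to rich medium these genes rose within minutes. Cells taken after 1 h in SPO had 80 of the 81 genes higher at 5 min in YPD, against 27.4% of all genes, with a median log2 fold change of 4.39. All 81 genes were higher at 20 min and none was lower at an adjusted or unadjusted p under 0.05 in edgeR, against 38.4% and 42.7% of all genes, with a median of 6.78. Single-copy genes had medians of 4.63 and 7.13, paralogue genes of 4.37 and 6.77, and small-subunit genes of 4.30 and 6.85. Of the 34 mitochondrial large-subunit genes, 4 were higher and 11 lower at 5 min, against 27.4% and 46.7% of all genes. Both comparisons share the libraries before transfer.

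RPL5 stood at 33.2 and 17.9 CPM before transfer, at 1718 and 1324 CPM after 5 min, and at 6291 and 5974 CPM after 20 min. Each step lay above the last with no overlap, and the log2 fold change of RPL5 at 20 min was 7.84 ± 0.25. RPP0 followed the same steps, from 36.6 and 38.5 CPM to 1365 and 1018 CPM and then 5419 and 5407 CPM. RPL21A and RPL22A rose most, by 9.40 ± 0.27 (edgeR adjusted p = 3.45e-28) and 9.00 ± 0.26 at 20 min. RPL21A rested on 5 and 3 reads per library before transfer and RPL22A on 7 and 4, so the size of these folds is set by few reads. RPL27A, RPL13A and RPL17B rose by 8.23, 8.12 and 8.06.

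The lowest changes were in RPL41B and RPL15B. RPL41B stood at 999.7 and 914 CPM before transfer, 718 and 821 CPM at 5 min, and 1863 and 1562 CPM at 20 min. Its 5 min libraries lay below those before transfer (log2 fold change -0.31 ± 0.16, edgeR adjusted p = 0.0796), and the 20 min libraries lay above both (0.84 ± 0.16, adjusted p = 1.16e-05 in edgeR). RPL15B stood at 58.3 and 52.1 CPM, 111 and 105 CPM, and 258 and 271 CPM, a rise of 2.25 ± 0.16 at 20 min. A comparison of 20 with 5 min, chosen after seeing the data, found all 81 genes higher at 20 min (41.1% of all genes), with a median of 2.40. The median of all genes at 20 min against before was -0.10 with TMM scaling and -0.77 with library sizes alone, and the large-subunit median lay 6.88 above it under either.

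Cells transferred after 7 h in SPO rose at first and then fell back. At 5 min 80 of the 81 genes were higher than before (26.2% of all genes), with a median of 3.78. At 20 min 77 were higher (17.9% of all genes), with a median of 2.20, and this number was 62 to 78 when each library was left out in turn. RPL5 stood at 107 and 151 CPM before transfer, at 1688 and 1771 CPM after 5 min, and at 759 and 808 CPM after 20 min. RPL3 showed the same peak, at 235 and 215 CPM, then 2049 and 1919 CPM, then 837 and 872 CPM. From 5 to 20 min, a comparison chosen after seeing the data, 78 genes fell (14.7% of all genes) with a median of -1.61. Genes that did not pass there were RPL15B (-0.07), RPL41B (-0.31) and RPL22B (0.12 ± 0.18, edgeR adjusted p = 0.653).

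RPL22B was the exception in level. It stood at 18.8 and 47.7 CPM before transfer at 7 h, 177 and 163 CPM at 5 min, and 166 and 215 CPM at 20 min. Its 5 and 20 min libraries overlapped, while RPL22A went from 529.9 and 497 CPM at 5 min down to 171 and 175 CPM at 20 min. The second library before transfer at 7 h had the fewest counts of the series, with a median of 7 reads per large-subunit gene.

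The 20 min response differed between the 2 times of transfer in a test of the difference itself. It was smaller after 7 h than after 1 h for 80 of the 81 genes (28.4% of all genes), with a median difference of -4.42 on the log2 scale and of 0.11 over all genes. RPL5 differed by -5.09 ± 0.34. RPL41B was the gene that did not pass (-0.44 ± 0.25, edgeR adjusted p = 0.128). The starting levels differed too: before transfer, 55 genes were higher at 7 h than at 1 h and 3 were lower (29.2% and 32.8% of all genes). That number fell to 36 without the first 7 h library, and to 36 with library sizes alone. Tag counts gave 11 genes higher and 1 lower there, against 17.8% and 13.4% of all genes. RPL21A (3.42 ± 0.48), RPL22A (2.75 ± 0.47) and RPL29 (2.52 ± 0.28) were the most raised, and RPL41B (-1.33), RPL41A (-1.27) and RPL21B (-0.85) were those that were lower.

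Markers of sporulation moved with the return to growth in a different way after the 2 transfers. Their summed RNA fell from 2843.6 to 3619.3 CPM before transfer at 1 h to 456.7 to 497.5 CPM at 5 min and 85.3 to 101.3 CPM at 20 min. After 7 h it was 45050.0 to 48047.9 CPM before, 30858.6 to 33518.5 CPM at 5 min and 44558.5 to 46691.5 CPM at 20 min. Its part in the result was not tested. Tag counts gave 78 of 81 genes higher at 5 min (13.0%) and 80 at 20 min (26.0%) after 1 h, and 79 (15.4%) and 39 (6.15%) after 7 h.

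**Figure D2:**
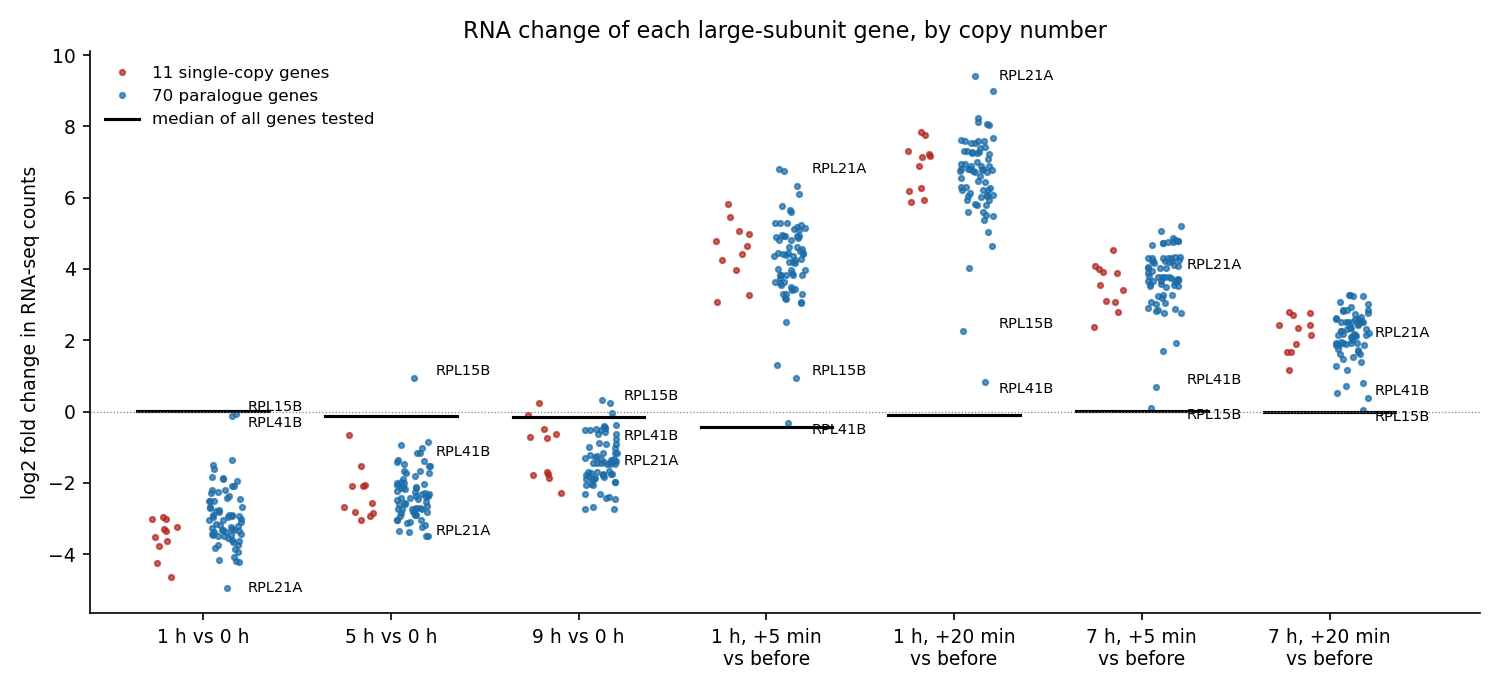
Log2 fold change in RNA-seq counts of each large-subunit gene in 7 comparisons, with the 11 single-copy genes in red, the 70 paralogue genes in blue and the median of all genes tested as a black bar. At 1 h in SPO the set lay around -3.10, and at 20 min in YPD after 1 h in SPO around 6.78. RPL15B and RPL41B lay near 0 at 1 h, apart from the other paralogue genes, and no single-copy gene did.

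Genes of factors that act on large-subunit proteins or their genes were counted next to them. All 7 genes of dedicated chaperones and assembly partners of large-subunit proteins fell at 1 h in SPO (median -1.90), against 29.3% of all genes. All 7 rose at 20 min in YPD after 1 h (median 5.48), against 38.4% of all genes. RRB1, the chaperone of the RPL3 protein, fell by 4.56 and rose by 7.20. SYO1, which imports the RPL5 and RPL11 proteins, fell by 3.24 and rose by 6.05, and ACL4, the chaperone of RPL4, fell by 0.76. PUF6 fell by 4.36 and rose by 8.01, and LOC1 rose by 2.64.

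Among 12 regulators of ribosomal protein genes, 4 were lower and 3 higher at 1 h, and 5 were lower and 6 higher at 20 min in YPD after 1 h. The shares of all genes were 29.3% lower and 28.4% higher at 1 h and 42.7% lower and 38.4% higher at 20 min, so most of these counts were near the background. IFH1, the coactivator, fell by 1.84 and rose by 3.24, while CRF1, its corepressor, rose by 1.15 and fell by 3.16. RAP1 was higher by 1.28 at 1 h and did not pass the test at 20 min (0.20, edgeR adjusted p = 0.248). FHL1 did not pass at 1 h (-0.07) and rose by 1.36 at 20 min. Of 7 methyltransferase genes that modify large-subunit proteins, 3 were lower and 1, RKM1, was higher at 1 h, and 5 were higher at 20 min, with HPM1, which modifies the RPL3 protein, at 3.73, against the same shares of all genes.

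The copies of some pairs went separate ways. In 11 of the 35 pairs the A and B copies differed by more than 1 log2 unit in their change at 1 h in SPO, with a median absolute difference of 0.65 over all pairs. The difference was greatest in RPL15 (A minus B -3.77), RPL21 (-3.57), RPL22 (-2.08), RPL14 (-2.04) and RPL41 (-1.72). At 20 min in YPD after 1 h the same was true of 16 pairs, led by RPL15 (4.97), RPL21 (3.61), RPL41 (3.20), RPL22 (2.21) and RPL13 (2.18). The difference between copies was not tested as such, and each copy's own test is given below.

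RPL15 had 1 copy that fell at 1 h and 1 that did not pass the test (RPL15A YLR029C, chrXII:201976-202590; RPL15B YMR121C, chrXIII:509734-510348). RPL15A stood at 511 and 495 CPM at 0 h, 31.5 and 38.4 CPM at 1 h, and 61.3 and 52.2 CPM at 5 h. RPL15B stood at 69.8 and 65.1 CPM, 64.6 and 64.7 CPM, and 120.3 and 148 CPM. Thus the 1 h libraries of RPL15A lay far below 0 h, and those of RPL15B lay just below it. The log2 fold changes at 1 h were -3.83 ± 0.17 for RPL15A (edgeR adjusted p = 2.09e-12) and -0.06 ± 0.14 for RPL15B (adjusted p = 0.719 in edgeR). At 5 h RPL15B was the only large-subunit gene above its 0 h level, by 0.96 ± 0.13 (edgeR adjusted p = 3.37e-06). RPL15A made up 88.0% and 88.4% of the pair's RNA per kb at 0 h and 32.8% and 37.2% at 1 h, and at 20 min in YPD 94.0% and 93.9%. Coding identity of this pair is 93.2%, and the bases that tell the copies apart are shown above.

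RPL41, the pair with 1 differing coding base, was dominated by its B copy through the time course. RPL41A stood at 389 and 351 CPM at 0 h, 131 and 77.8 CPM at 1 h, and 259 and 436 CPM at 9 h. RPL41B stood at 1497 and 1359 CPM at 0 h and 1444 and 1168 CPM at 1 h, and the 2 times overlapped (log2 fold change -0.13 ± 0.20, edgeR adjusted p = 0.601). From 2 h to 8 h RPL41B stood at 536 to 843 CPM, below both earlier times, and its log2 fold change at 5 h was -0.94 ± 0.20 (edgeR adjusted p = 0.000394). The share of RPL41A was 20.6% and 20.5% at 0 h, 8.30% and 6.25% at 1 h, 49.8% and 46.8% at 20 min in YPD after 1 h, and 61.9% in growing WT cells. With 1 coding base apart, these shares depend on how reads were assigned and on untranslated sequence.

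RPL21 changed its major copy. RPL21A (YBR191W, chrII:606270-607140) stood at 153 and 161 CPM at 0 h, 6.01 and 4.39 CPM at 1 h, and 66.2 and 57.1 CPM at 9 h. RPL21B (YPL079W, chrXVI:406636-407539) stood at 175 and 170.5 CPM, 60.1 and 72.4 CPM, and 22.1 and 28.6 CPM. RPL21A was at its lowest at 1 h and RPL21B at the end, so that the share of RPL21A went from 46.7% and 48.6% at 0 h to 9.09% and 5.71% at 1 h and to 75.0% and 66.7% at 9 h. RPL21A changed by -4.93 ± 0.34 at 1 h and RPL21B by -1.37 ± 0.15. The fold and share of RPL21A at 1 h rest on few reads. The median per large-subunit gene in those libraries was 34 and 52 reads, and the lowest count of any of them was 7 and 8. At 9 h RPL21A and RPL21B stood at -1.37 ± 0.28 and -2.72 ± 0.23 against 0 h. The 9 h libraries were shallow too, with a median of 31 and 51 reads per large-subunit gene and a lowest count of 7 and 18.

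RPL22 had its A copy in the lead in growing cells (RPL22A YLR061W, chrXII:263194-263948; RPL22B YFL034C-A, chrVI:64243-64932; both have 1 intron). In S. cerevisiae the Rpl22 protein binds the intron of RPL22B and holds back its splicing. RPL22A stood at 136 and 129 CPM at 0 h and 9.01 and 6.03 CPM at 1 h, and RPL22B at 45.6 and 43.9 CPM and 10.5 and 10.4 CPM. Both fell without overlap, with log2 fold changes of -4.17 ± 0.22 for RPL22A and -2.09 ± 0.24 for RPL22B. At 5 min in YPD after 1 h RPL22A stood at 454 and 368 CPM and RPL22B at 297 and 324 CPM, and at 20 min RPL22A was at 1971 and 1983 CPM and RPL22B at 489 and 516 CPM. The share of RPL22A was 75.1% and 74.8% at 0 h, 46.4% and 36.9% at 1 h, 60.7% and 53.4% at 5 min and 80.3% and 79.5% at 20 min in YPD.

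RPL40 and RPL9 were named for known roles, and their copies differed by less than 1 log2 unit at 1 h in SPO. A minus B was -0.70 for RPL40 and 0.84 for RPL9, against a median absolute difference of 0.65 over all pairs. RPL40A and RPL40B encode ubiquitin fused to a ribosomal protein, and their log2 fold changes at 1 h were -2.91 and -2.21. Those of RPL9A and RPL9B were -1.62 and -2.46, and RPL9A stood at 105 and 109 CPM at 0 h, 33.8 and 35.6 CPM at 1 h and 96.6 and 67.6 CPM at 9 h. At 20 min in YPD after 1 h the A minus B difference of RPL9 was 1.84, and that of RPL40 was -0.09. Leaving out the 11 pairs of at least 95% coding identity left 47 of 48 paralogue genes lower at 1 h, with a median of -2.95.

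**Figure D3:**
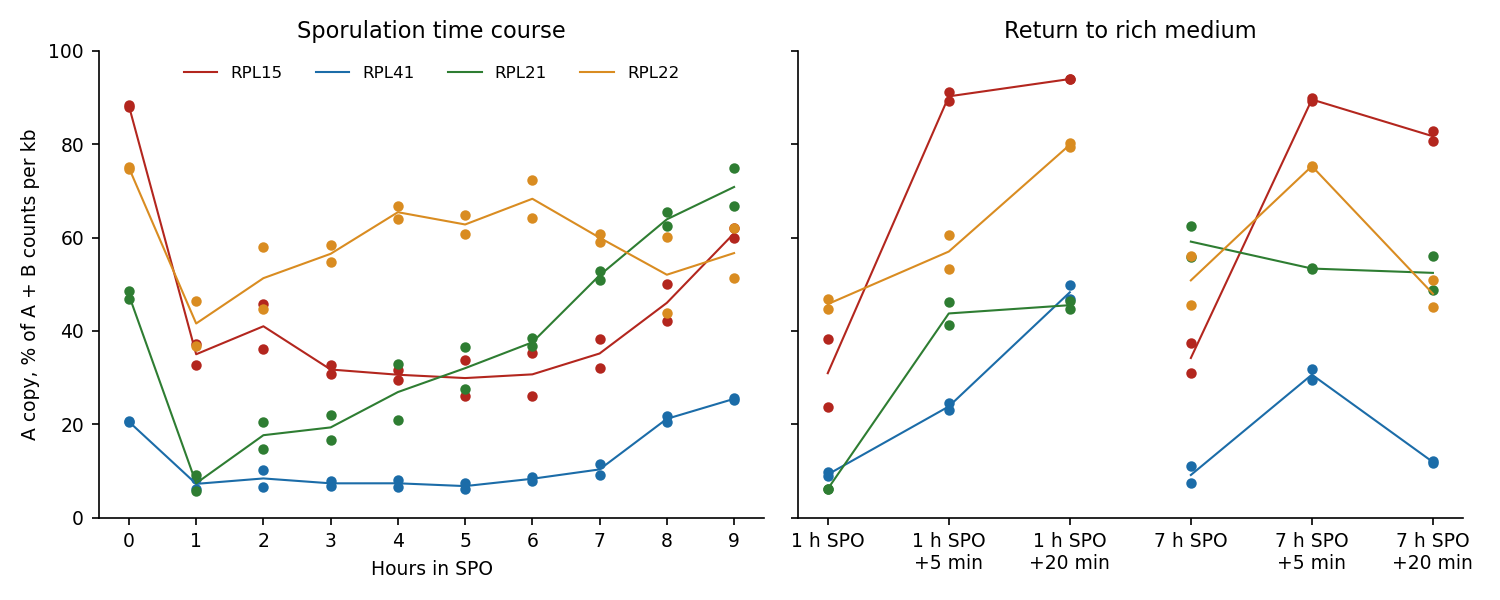
Share of the A copy in the summed A and B counts per kb (%) for 4 pairs, with points for libraries and lines through the means, over the hours in SPO (left) and in the return to rich medium (right). RPL15A fell from 88.0% and 88.4% at 0 h to 32.8% and 37.2% at 1 h and rose again at the end. RPL21A fell to 9.09% and 5.71% at 1 h and then rose to 75.0% and 66.7% at 9 h.

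Tail lengths in the time course were limited by few tags. A gene was tested where each library compared had at least 20 of its tags, and 5, 14 and 12 of the 81 genes met this at 1 h, 5 h and 9 h. None passed limma's test with adjusted p under 0.05 at 1 h (0.00% of all genes shorter and 10.8% longer), at 5 h (0.179% and 9.48%) or at 9 h (1.07% and 0.536%). With unadjusted p under 0.05, 0, 4 and 0 were longer and none was shorter. RPL41B had the most tags and stood at 28.8 and 30.3 nt at 0 h and at 31.6 and 33.3 nt at 1 h, a difference of 2.92 ± 1.41 nt (limma adjusted p = 0.147). At 5 h RPL19A (7.85 nt), RPL6B (6.97 nt) and RPL28 (6.72 nt) had the largest differences, and at 9 h RPP2A did (-5.53 nt). The other 67 to 76 genes had too few tags, so a change in their tails was not detectable at this depth.

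Tails lengthened sharply at 5 min after transfer from 1 h in SPO. Before transfer the median tail of the large-subunit genes was 23.0 and 24.1 nt, close to that of all genes at 24.7 and 25.4 nt. At 5 min it was 46.5 and 46.5 nt, with all genes at 27.1 and 24.3 nt, and at 20 min it was 34.8 and 32.8 nt, with all genes at 31.2 and 28.1 nt. Of the 46 genes with enough tags before and after, 44 were longer at 5 min and none was shorter at any p under 0.05 in limma, against 10.9% and 2.79% of all genes, and the median difference was 22.6 nt. All 8 single-copy genes tested were longer (median 24.6 nt), as were 36 of 38 paralogue genes (22.3 nt), and 29 of 29 small-subunit genes (22.7 nt).

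RPL5 tails were 23.0 and 24.1 nt before, 50.6 and 48.5 nt at 5 min, and 33.4 and 32.9 nt at 20 min. RPP0 tails were 25.4 and 21.2 nt, then 50.6 and 46.6 nt, then 36.6 and 35.5 nt. RPL35A tails were 23.0 and 20.6 nt, then 51.4 and 51.8 nt, then 36.3 and 33.1 nt. In these genes the 5 min libraries lay above all others and the 20 min libraries lay between, with no overlap. The largest differences at 5 min were those of RPL16B (30.9 ± 5.26 nt), RPL14A (30.3 ± 2.99 nt, limma adjusted p = 9.01e-07), RPL35A (29.8 ± 2.39 nt, limma adjusted p = 7.78e-08) and RPL6B (29.7 nt).

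RPL41B and RPL15B, which moved least in RNA, also moved least in tail length at 5 min. RPL41B tails were 33.1 and 33.9 nt before, 34.9 and 33.2 nt at 5 min, and 40.4 and 38.2 nt at 20 min. Its first 2 groups overlapped (0.52 ± 1.66 nt, limma adjusted p = 0.865) and the 20 min libraries lay above them. RPL15B tails were 22.5 and 33.5 nt, 29.5 and 31.8 nt, and 29.4 and 31.3 nt, and all 3 groups overlapped (2.66 ± 3.44 nt at 5 min, adjusted p = 0.668 in limma). RPL15A tails, by contrast in value, were 19.8 and 21.1 nt, then 47.3 and 47.5 nt, then 31.1 and 29.7 nt.

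At 20 min in YPD, 28 of 46 genes were longer than before transfer and none was shorter at any p under 0.05 in limma (20.3% and 5.81% of all genes), by a median of 9.90 nt, and 12 were when the first 20 min library was left out. RPL14A (16.5 nt) and RPP1A (16.4 ± 1.89 nt, limma adjusted p = 8.41e-05) had the largest gains. From 5 to 20 min, compared after seeing the data, all 81 genes had enough tags, and 63 shortened and 1, RPL41B, lengthened (14.5% and 7.48% of all genes). The median was -13.0 nt, and 38 were shorter without the second 20 min library and 39 with log2 tails. The largest differences were those of RPL17B (-22.5 ± 3.89 nt), RPL13A (-21.7 nt) and RPL27B (-21.7 nt), and RPL41B lengthened by 5.26 ± 1.63 nt (limma adjusted p = 0.0307). RPL41B did not pass in any of the 4 fits that left out a library, nor with log2 tails.

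Copies of a pair could differ in tail length at the same time. RPL17B tails were 62.6 and 65.9 nt at 5 min in YPD after 1 h in SPO, and RPL17A tails were 43.1 and 41.8 nt. The copies did not overlap, with A minus B at -19.6 and -24.0 nt. Over all pairs the median of A minus B in those libraries was 2.90 and 2.08 nt, and the median absolute difference was 5.19 and 5.20 nt. RPL17 was the most negative pair in both. The most positive was RPL15 in the first library (17.8 nt) and RPL14 in the second (16.4 nt).

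Tails of cells transferred after 7 h in SPO had a median of 21.4 and 23.8 nt before, 30.1 and 27.5 nt at 5 min, and 26.1 and 33.3 nt at 20 min. At 5 min none of the 64 genes tested passed limma's test at an adjusted p under 0.05 (0.00% of all genes), 33 were longer and 1 shorter at an unadjusted p under 0.05, and the median difference was 6.20 nt. This number depended on the setting: 15 passed with each library centred on its median, 14 with log2 tails, 8 with at least 50 tags and 1 with at least 10. RPP0 came nearest, at 16.2 and 22.5 nt before and 30.5 and 29.8 nt after (10.8 ± 2.24 nt, limma adjusted p = 0.0588). At 20 min 5 of 63 genes were longer and none was shorter at any p under 0.05 in limma (0.391% and 0.0391% of all genes). They included RPL8B (14.1 nt), RPL5 (12.5 nt), RPL2B (12.3 nt) and RPL27B (9.84 nt). This number was 30 without the first 20 min library, 1 without the second, 2 without the first library before transfer and 3 without the other. It was 33 with each library centred on its median and 15 with log2 tails. The 2 libraries at 20 min stood apart, as the medians show. From 5 to 20 min none of 79 genes passed limma's test at an adjusted p under 0.05, against 0.0371% shorter and 0.111% longer of all genes. At an unadjusted p under 0.05, 3 of the 79 genes were shorter and 4 longer.

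The 5 min tail response was smaller after 7 h than after 1 h for 28 of the 45 genes tested (4.87% of all genes), in a test of the difference chosen after seeing the data. With log2 tails 13 passed, and with at least 50 tags 4 of the 9 genes left did. The median difference was -15.8 nt for these genes and 0.26 nt for all genes, and 7 of 8 single-copy genes passed (median -17.9 nt). RPL14A differed by -23.1 nt, with 27.1 and 17.9 nt before and 52.5 and 53.1 nt at 5 min after 1 h, and 29.3 and 25.9 nt before and 35.7 and 33.9 nt at 5 min after 7 h. RPL41B (6.97 nt) and RPL41A (2.22 nt) differed the other way without passing. The starting tails of 7 h and 1 h did not differ at an adjusted p under 0.05 in any of 45 genes. At that threshold 0.433% of all genes were shorter and 0.241% longer. At an unadjusted p under 0.05 in limma, 9 of the 45 genes were shorter and 2 longer.

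**Figure D4:**
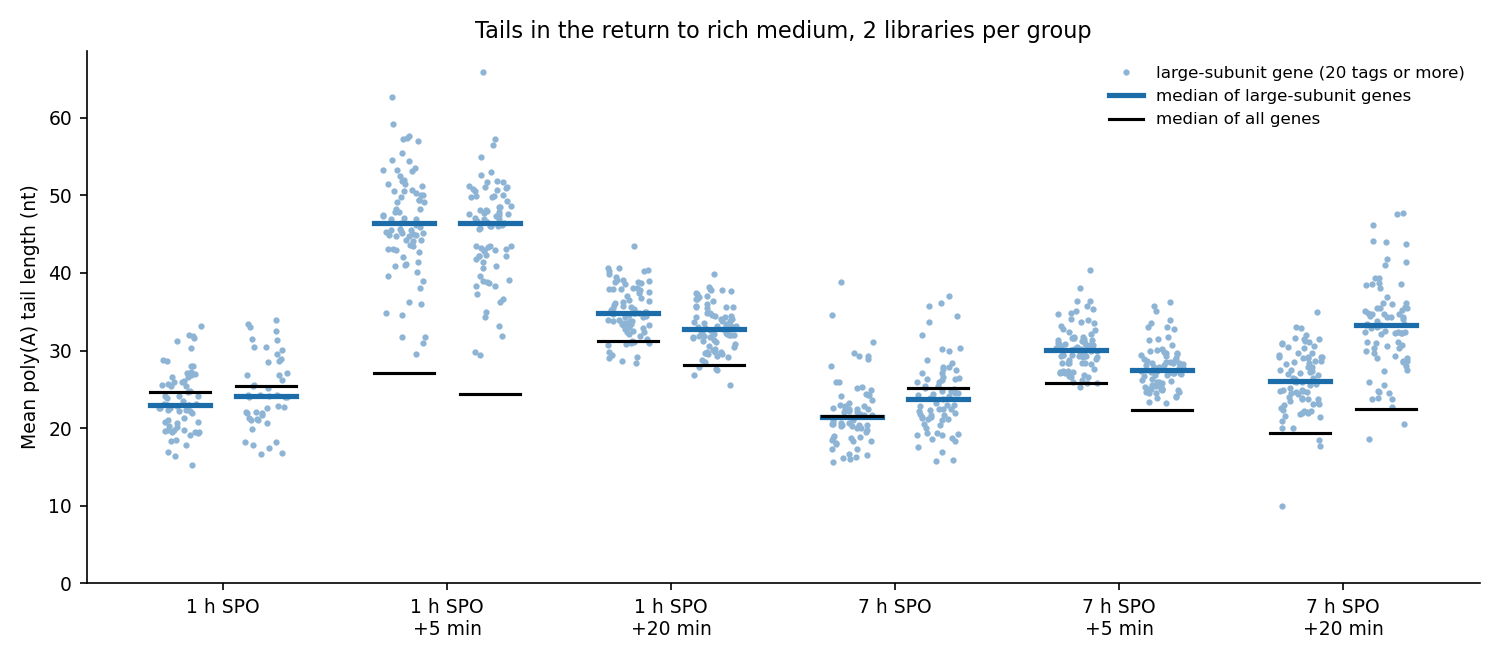
Mean poly(A) tail length (nt) of each large-subunit gene with at least 20 tags, 2 libraries per group, before and at 5 and 20 min after transfer to YPD. Blue bars are the medians of the large-subunit genes and black bars those of all genes. At 5 min after 1 h in SPO the blue bars reached 46.5 nt and the black bars stayed at 27.1 and 24.3 nt, and after 7 h the blue bars reached 30.1 and 27.5 nt.

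The strains of the third experiment had 1 library per condition, so their differences have no replicate check. There a gene was counted as different past 1 log2 unit of RNA or past 5 nt of tail. In growing WT cells the median tail of the large-subunit genes was 26.2 nt, against 37.8 nt for all genes. RPL21A (18.4 nt) and RPL25 (18.7 nt) were shortest and RPL22B (46.4 nt) and RPL18B (36.2 nt) longest. The median was 39.8 nt in premeiotic cells and 33.9 nt after 5 h in SPO, where all genes stood at 33.3 and 36.7 nt. From vegetative to premeiotic cells, 77 of 81 genes were longer and 1 shorter (8.72% and 46.5% of all genes), with medians of 13.3 nt for the set and -4.44 nt for all genes. RPL5 tails were 27.7 nt, 43.6 nt and 35.3 nt in vegetative, premeiotic and 5 h cells, and RPL36A lengthened most in premeiotic cells, by 21.5 nt. RPL22B was the gene that shortened (-6.61 nt).

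RNA in the same WT libraries was compared with that of vegetative cells, while the time course started at 0 h in SPO. The set held 17.2% of RNA-seq counts in vegetative, 2.21% in premeiotic and 0.772% in 5 h cells. At 0 h of the time course it held 2.20% and 2.09%. From premeiotic to 5 h cells the median RNA change was -1.34 for the set and 0.09 for all genes. All 81 genes were lower by at least 1 log2 unit in premeiotic than in vegetative cells (29.8% of all genes), with a median of -3.76, and 80 were lower after 5 h in SPO (29.3%), with a median of -5.10. RPL5 stood at 7898 CPM, 699 CPM and 245 CPM. RPL20A was furthest below at 5 h (-6.99), and RPL15B least, with 376 and 188 CPM. In 2 WT libraries that were fragmented before adapter ligation, all 81 genes were lower at 5 h in SPO than in vegetative cells. Their median was -5.34, and of all 5270 genes measured there 1388 were lower and 1768 higher.

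In growing cells of the mutants the tails of the set went with those of all genes in 2 strains and not in the third. In ccr4Δ/Δ cells all 81 genes were longer by at least 5 nt, as were 94.2% of all genes, with a median of 10.5 nt against 11.3 nt. In pop2Δ/Δ cells 25 were longer (41.3% of all genes), with a median of 4.32 nt against 4.29 nt. In xrn1Δ/Δ cells 6 of 81 were shorter by at least 5 nt, against 91.3% of all genes, and the median was -0.35 nt against -14.7 nt. RPL5 tails were 27.7 nt in WT, 38.7 nt in ccr4Δ/Δ, 32.7 nt in pop2Δ/Δ and 26.7 nt in xrn1Δ/Δ cells. The largest losses in xrn1Δ/Δ cells were in RPL22B (-22.0 nt), RPL9B (-8.09 nt) and RPL18B (-7.09 nt), and RPL43A gained 3.62 nt. The genes that shortened in xrn1Δ/Δ included those whose tails were longest in WT, RPL22B and RPL18B.

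RNA of the set was lower in the growing mutants relative to other genes. Its median was -0.51 in ccr4Δ/Δ (2 genes lower by at least 1 log2 unit, 2.15% of all genes), -0.99 in pop2Δ/Δ (38 lower, 7.46%) and -1.32 in xrn1Δ/Δ (73 lower and 1 higher, 10.4% and 10.3%). In xrn1Δ/Δ 9 of 11 single-copy genes were lower. With library sizes alone, which put the median of all genes at 0.24, 0.45 and 0.61 in these strains, the medians of the set were -0.24, -0.47 and -0.55, and no gene was lower by 1 log2 unit. The set's median minus that of all genes was -1.205 in xrn1Δ/Δ under TMM scaling and -1.16 under library sizes. With TMM scaling RPP2A (-1.71), RPL34A (-1.68) and RPP1B (-1.64) were lowest in xrn1Δ/Δ. In libraries fragmented before ligation 80 genes were lower in xrn1Δ/Δ and 1 was higher, with a median of -1.92. Of all 4724 genes measured in those libraries, 735 were lower and 625 higher, with a median of -0.02.

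RPL22B was the 1 gene that was higher in xrn1Δ/Δ. In growing cells it stood at 317 CPM in WT, 316 CPM in ccr4Δ/Δ, 327 CPM in pop2Δ/Δ and 767 CPM in xrn1Δ/Δ, on 254, 399, 303 and 564 reads. In premeiotic cells it stood at 45.6, 27.1, 50.5 and 474 CPM in the same order, and at 5 h in SPO at 23.5, 118, 86.9 and 131 CPM. Its level in xrn1Δ/Δ was the highest of the 4 strains in growing and in premeiotic cells. At 5 h its 131 CPM in xrn1Δ/Δ was close to the 118 CPM in ccr4Δ/Δ. The median large-subunit gene had 36 reads in that xrn1Δ/Δ library, so their order at 5 h rests on few reads. RPL22A in growing cells went the other way, from 2741 CPM in WT to 1398 CPM in xrn1Δ/Δ, so that its share in the pair was 89.7% in WT and 64.8% in xrn1Δ/Δ. RPL22B tails were 46.4 nt in WT and 24.4 nt in xrn1Δ/Δ in growing cells, against 26.2 and 26.6 nt for RPL22A. In the libraries fragmented before ligation RPL22B was higher in xrn1Δ/Δ by 1.28 on the log2 scale.

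Depletion of Xrn1 through the degron gave values of the same kind. Between 0 and 30 min of induction the set's median tail went from 27.0 to 24.6 nt and that of all genes from 38.2 to 26.1 nt. Only 5 of 81 genes shortened by at least 5 nt, against 86.7% of all genes, with medians of -2.43 nt and -11.7 nt. The largest changes were in RPL22B (-18.5 nt), RPL18B (-9.57 nt) and RPL31B (-6.92 nt). RPL22B RNA went from 233 to 560.2 CPM, on 296 and 2981 reads, and was the 1 gene of the set past 1 log2 unit (1.26, against 10.3% of all genes higher). The median RNA change of the set was -0.63, with RPL5 and RPL8B at -0.88. The uninduced strain and the WT control differed by a median of 0.08 in RNA and of 0.00 nt in tails.

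After induction of Ccr4 the tails of the set were shorter, as were those of other genes. At 60 min 49 of 81 genes were shorter by at least 5 nt (48.9% of all genes), with a median of -5.20 nt against -4.92 nt. RPL5 tails went from 21.3 to 16.5 nt, and those of RPL15B changed most (-7.72 nt), to 17.2 nt. RPL21A changed by 0.16 nt, from 9.26 nt, the shortest tail of the set in that library. RNA was lower by at least 1 log2 unit for 46 genes (3.81% of all genes) with a median of -1.02. With library sizes alone the median was -0.52 and no gene passed 1 log2 unit, while all genes moved by 0.50. RPL29 was lowest (-1.33) and RPL22B least changed (-0.40).

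In premeiotic and 5 h cells the mutants differ from WT in more than the deleted gene. Summed RNA of the 10 sporulation markers was 3254.8 CPM in premeiotic WT cells and 633.4, 508.0 and 160.5 CPM in ccr4Δ/Δ, pop2Δ/Δ and xrn1Δ/Δ cells. After 5 h in SPO it was 31910.7 CPM in WT and 690.1, 1440.4 and 2248.1 CPM in the mutants. SPO11 was at 0 in the premeiotic and 5 h ccr4Δ/Δ libraries, but also in premeiotic WT and pop2Δ/Δ cells. The 8 haploid-specific genes summed to 434.9 CPM in WT at 5 h and to 69.2, 59.0 and 105.2 CPM in the mutants. The part of these markers in the values that follow was not tested.

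In premeiotic cells the tails of the set were shorter in all 3 mutants, also where those of other genes were longer. In ccr4Δ/Δ 44 genes were shorter and 2 longer, against 2.62% and 72.8% of all genes, with medians of -5.39 nt and 8.71 nt. In pop2Δ/Δ 77 were shorter (7.90% of all genes), with medians of -11.9 nt and 5.66 nt. In xrn1Δ/Δ 80 of 81 were shorter (92.7%), with medians of -16.5 nt and -13.5 nt. RPL5 tails were 43.6 nt in WT and 35.3, 28.3 and 24.7 nt in the mutants. RPL2A shortened most in ccr4Δ/Δ (-13.1 nt) and xrn1Δ/Δ (-23.7 nt), while RPL15B (8.34 nt) and RPL41B (5.10 nt) lengthened in ccr4Δ/Δ. RPL41B differed by -4.66 nt in xrn1Δ/Δ and was the 1 gene there not past 5 nt.

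RNA of the set in premeiotic cells was near that of WT in 2 mutants, with medians of 0.01 in ccr4Δ/Δ (3 genes lower, 16.1% of all genes) and 0.03 in pop2Δ/Δ (2 lower and 2 higher, 15.4% and 19.5%). RPL4A (-1.76), RPL4B (-1.31) and RPL30 (-1.12) were those lower in ccr4Δ/Δ. In xrn1Δ/Δ 72 genes were higher (20.3% of all genes) with a median of 1.53. RPL22B (3.29) and RPL31B (3.13) rose most there and RPL4A was lowest (-0.22).

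After 5 h in SPO the RNA of the set was above WT in each mutant. It was higher by at least 1 log2 unit for 71 genes in ccr4Δ/Δ (22.9% of all genes, median 1.90), for 37 in pop2Δ/Δ with 2 lower (20.0% and 21.9%, median 0.93), and for 40 in xrn1Δ/Δ with 1 lower (18.8% and 22.9%, median 0.98). RPL5 stood at 245 CPM in WT and 900.0, 388 and 368 CPM in the mutants. RPL30 stood at 35.3 CPM in WT and 449, 214 and 184 CPM, and was the most raised in ccr4Δ/Δ (3.56) and in pop2Δ/Δ. RPL15B went from 188 CPM in WT to 127, 74.5 and 74.5 CPM, the reverse of the set, and RPL29 was lower in pop2Δ/Δ (-1.31).

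Tails after 5 h in SPO were shorter than in WT for 10 of 80 genes in ccr4Δ/Δ and longer for 1 (18.8% and 22.1% of all genes, median -1.05 nt). They were shorter for 51 in pop2Δ/Δ and longer for 1 (23.4% and 19.1%, median -5.44 nt against -0.78 nt), and for 80 of 80 in xrn1Δ/Δ (98.5%, median -15.4 nt against -17.6 nt). RPL9A had the largest loss in each mutant: its tail was 48.7 nt in WT, on 136 tags, and the differences were -17.5, -20.8 and -34.7 nt in ccr4Δ/Δ, pop2Δ/Δ and xrn1Δ/Δ. In growing WT cells RPL9A tails were 24.9 nt, on 40458 tags, and in premeiotic WT cells 42.5 nt, on 229 tags.

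**Figure D5:**
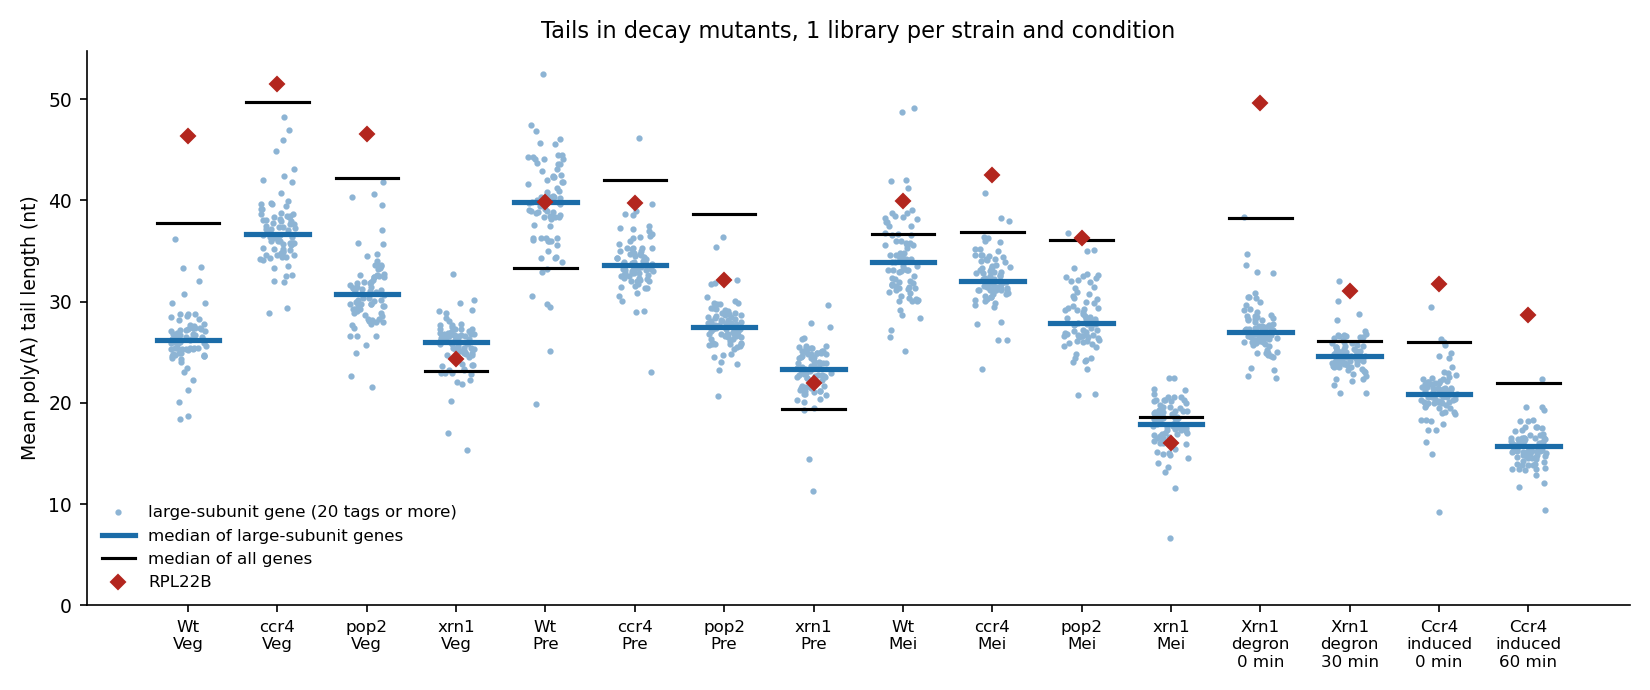
Mean poly(A) tail length (nt) of each large-subunit gene in WT and mutant cells in vegetative (Veg), premeiotic (Pre) and 5 h SPO (Mei) conditions, and in the Xrn1 degron and Ccr4 induction strains, with 1 library per position. Blue bars are medians of the set, black bars medians of all genes, and red diamonds mark RPL22B. In vegetative xrn1 cells and at 30 min of the degron the black bar fell to the level of the blue one, and RPL22B fell with it, from 46.4 to 24.4 nt and from 49.6 to 31.1 nt.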

How the data were processed

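RNA-seq read counts and poly(A) tag counts per gene and library were deposited by the authors as raw whole numbers. Mean poly(A) tail length is a score in nucleotides, used as deposited by the authors. Per the submitters' processing notes, STAR 2.5.3a, bedtools 2.26.0 and the build sacCer3 were used. These sources do not state use of strand, treatment of reads that match several genes, or deduplication. Of the deposited tables, 6 columns of per-sample values (a 3′ bias ratio) were not used. Coordinates are open reading frames of RefSeq R64, the assembly sacCer3 stands for, and 6008 rows matched its names.

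For counts, edgeR 4.0.16 (R 4.3.3) fitted quasi-likelihood models after TMM scaling and filterByExpr, 1 of group means per experiment, and all 81 genes passed the filter. CPM is the count scaled to a common TMM-adjusted total. Tails with at least 20 tags in each compared library were tested with limma 3.58.1 in nt, with a robust variance prior that followed tag number. A call is a Benjamini-Hochberg adjusted p under 0.05 over all genes tested. Groups with 1 library were compared as log2 CPM with a prior count of 2, where the mean count was 10 or more, and without a test. Replicates of a group differed by more than sampling noise. The models were tested on simulated data. Alternatives were DESeq2 1.42.0, library sizes alone, no low-count filter, other tag minima, centred and log2 tails, a replicate block and leaving out each library.

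The members and lists were chosen with earlier results of these data known. Genes named are the single-copy genes, the 5 highest and lowest members of each comparison (8 for tails, 3 for single libraries), the 5 pairs furthest apart, a few with known roles (RPL9, RPL22, RPL40, RPL41 and the stalk genes) and the listed regulators, chaperones and methyltransferases. The values of 1 member, which is part of the counts and medians, are not reported here.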

Additional observations from a re-analysis of the deposited data

Results flagged for a closer look

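The 20 min response to YPD differed between cells taken at 7 h and at 1 h in SPO, by a test of the difference, for 80 large-subunit genes, each smaller after 7 h. The largest differences on the log2 scale were those of RPL21A (-7.20), RPL22A (-6.27), RPL27A (-5.72), RPL20A (-5.58) and RPL38 (-5.54). RPL21A and RPL22A rested on few reads before transfer at 1 h.

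The 5 min tail response differed between the same 2 times of transfer for 28 genes, each smaller after 7 h, by a test of the difference chosen after seeing the data. The largest differences were those of RPL6B (-24.0 nt), RPL14A (-23.1 nt), RPL17A (-22.6 nt), RPL38 (-21.9 nt) and RPL15A (-21.6 nt).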

How the results depend on the processing

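Of 13496 results for single genes under an alternative, 12880 kept their direction and their side of the threshold, 423 lost the call, 192 gained it and 1 reversed: RPL22B at 20 against 5 min in YPD after 1 h, at -0.044 with library sizes alone. RNA counts of calls that moved were those at 7 h against 1 h before transfer, 36 higher with library sizes alone. Leaving out each library gave 31 to 39 higher from 1 h to 5 h, 36 to 53 higher and 1 to 3 lower at 7 h against 1 h, and 0 to 1 lower at 5 min after 1 h. Tail calls depended more on the settings. A minimum of 50 tags gave 8 longer at 5 min and 8 at 20 min after 1 h, 8 and 8 after 7 h, 1 shorter at 7 h against 1 h, 4 in the difference of responses and 1 longer at 5 h in SPO, and a minimum of 10 gave 1 longer at 5 min after 7 h. Centring each library gave 15 longer at 5 min and 33 at 20 min after 7 h, 2 shorter and 2 longer at 7 h against 1 h, 2 longer from 5 to 20 min after 7 h and 1 greater response after 7 h. Log2 tails gave 14 and 15 longer after 7 h, 2 shorter at 7 h against 1 h, 39 shorter and 0 longer from 5 to 20 min after 1 h, and 13 in the difference of responses. Leaving out each library gave 39 to 62 longer at 5 min and 12 to 33 at 20 min after 1 h, 1 to 30 at 20 min after 7 h, 38 to 56 shorter and 0 longer from 5 to 20 min after 1 h, 0 to 4 longer after 7 h, and 19 to 38 in the difference. With a replicate block, 1 tail was longer at 1 h and 3 at 5 h in SPO; it changed no other number of calls by over 1.5 times, and the numbers were not taken to pair the libraries: in the time course the correlation of same-numbered deviations in RNA ran from -0.16 to 0.40, with 22 of 45 pairs of groups over 0.1 (19 of 45 in tails), and in the return to growth none of 15 was over 0.1. The cause of these moves was not tested, except that a higher minimum tests fewer genes. For single libraries, centred median tail differences were -1.50 nt (ccr4Δ/Δ), -0.20 nt (pop2Δ/Δ) and 14.2 nt (xrn1Δ/Δ) in vegetative cells, -14.1, -17.2 and -2.87 nt in premeiotic cells, 2.52 nt for xrn1Δ/Δ at 5 h, 17.7 nt from vegetative to premeiotic WT, -8.52 nt from premeiotic to 5 h, 9.78 nt in the degron, -0.56 nt with Ccr4 induced and 1.72 nt for its strain before induction. Median RNA differences with library sizes alone were -0.47 (pop2Δ/Δ) and -0.55 (xrn1Δ/Δ) in vegetative cells, 1.55 (xrn1Δ/Δ, 5 h), -3.09 (premeiotic against vegetative WT) and -0.52 (Ccr4 induced).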
